A study of Mus musculus with 16 samples.

Results

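A set of 10 genes that mark or direct the oligodendrocyte lineage was followed in mouse somatosensory cortex: Pdgfra, Cspg4, Olig1, Olig2, Sox10, Nkx2-2, Myrf, Bcas1, Enpp6 and Gpr17. They were taken by gene symbol, 10 of the 24421 genes in the deposited tables, and all 10 had reads in every library, from 57 to 8547 reads. The mice were C57BL/6 (wild-type, WT, of the J substrain in the study's methods) or AcPb-/-, described in the labels as male, homozygous, bred locally for 5 to 7 generations and 2 to 3 months old. AcPb is the brain isoform of the interleukin 1 receptor accessory protein. Mice of both genotypes were kept awake by gentle handling from ZT20 to ZT4, which is 8 h of sleep disruption (SD), where ZT0 is lights on. Control (CTL) mice of both genotypes were left undisturbed, and all mice were killed at ZT4. The analysed libraries, each of bulk cortical RNA, were 3 of CTL-WT, 3 of SD-WT, 3 of CTL-AcPbKO and 3 of SD-AcPbKO, named by the replicate numbers of the labels. The comparisons address how sleep loss and the lack of AcPb bear on expression of these genes.

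Oligodendrocytes make the myelin that insulates axons, and in the adult cortex they still arise from precursor cells that divide and differentiate. Precursors carry the receptor Pdgfra and the proteoglycan NG2, the product of Cspg4. Commitment is marked by the receptor Gpr17, then by Bcas1 and Enpp6 in newly formed cells, and the transcription factor Myrf switches on myelin genes. Olig1, Olig2, Sox10 and Nkx2-2 are transcription factors used along the lineage, and Olig2 and Sox10 are needed to make the cells. In bulk tissue, fewer cells of a type and less RNA per cell cannot be told apart.

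Olig1 and Olig2 are related genes that lie side by side in the genome, and their log2 fold changes after SD lay on opposite sides of 0, so their shared sequence is given first. In GRCm38 (GENCODE M21), Olig1 is a gene of 1 exon at chr16:91269772-91271933 and Olig2 a gene of 2 exons at chr16:91225457-91228677, both on the plus strand, with 41.1 kb between them. The coding stretches most alike are shown because they bear on whether reads of one gene could be counted for the other. They cover Olig1 at chr16:91270147-91270229 and Olig2 at chr16:91226712-91226794, plus strand, 5′ to 3′, and capitals mark the bases at which they differ:
Olig1: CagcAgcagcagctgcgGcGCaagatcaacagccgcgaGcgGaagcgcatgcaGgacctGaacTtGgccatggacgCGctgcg
Olig2: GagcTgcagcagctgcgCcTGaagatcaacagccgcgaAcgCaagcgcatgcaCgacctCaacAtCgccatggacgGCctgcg
Of these 83 bases, 70 were identical (84.3%), and the longest identical run was 17 bases, shorter than the 100 bases of a read. For each of the 10 genes, 0 stretches of 100 exon bases were shared with another gene.

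Beside the results the following facts of the libraries apply. The 6 control libraries held 26504840 to 41615582 reads on genes and the 6 SD libraries 58770286 to 71857505, so depth differed with SD. Replicates 2 and 3 of CTL-WT and 4 and 5 of CTL-AcPbKO held 25352 to 39358 Xist reads and 0 to 2 reads of 4 Y-linked genes, against the label male, while the other 8 libraries held 5 to 13 Xist reads. All 4 libraries with Xist were controls. SD-AcPbKO replicate 4 held choroid plexus transcripts, with a summed normalized count of 17924 over 5 genes against 232 to 531 in the other libraries. Normalized counts of Il1rap, the gene that also encodes AcPb, were 1497 ± 21.9 (SD, n = 3) in CTL-WT, 1825 ± 95.6 in SD-WT, 1583 ± 66.1 in CTL-AcPbKO and 1971 ± 78.9 in SD-AcPbKO, and counts per gene do not check the loss of an isoform. Normalized counts below are reads divided by a size factor for each library, with all 12 libraries normalized together.

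Per kilobase of exon, levels spanned a wide range. Olig1 had the highest mean level over the 12 libraries, 1284 ± 259 normalized counts per kb (SD, n = 12), and Bcas1 followed at 1128 ± 357. Gpr17 (460 ± 63.5), Sox10 (377 ± 76.5), Olig2 (329.6 ± 39.97) and Pdgfra (281 ± 20.7) came next. Myrf stood at 196 ± 49.8 and Cspg4 at 91.8 ± 12.4 normalized counts per kb. The lowest were Nkx2-2 at 34.4 ± 5.69 and Enpp6 at 23.3 ± 7.83, with 57 to 168 and 61 to 234 reads per library. Neighbours in this order had overlapping ranges over the 12 libraries, except Cspg4, whose lowest library was at 77.5, and Nkx2-2, whose highest was at 44.5. The highest library exceeded the lowest 3.99-fold for Bcas1, 2.65-fold for Enpp6 and 2.46-fold for Myrf, and 1.28-fold for Pdgfra and 1.35-fold for Olig2, with Gpr17 at 1.49-fold and Nkx2-2 at 1.92-fold between them.

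**Figure D1:**
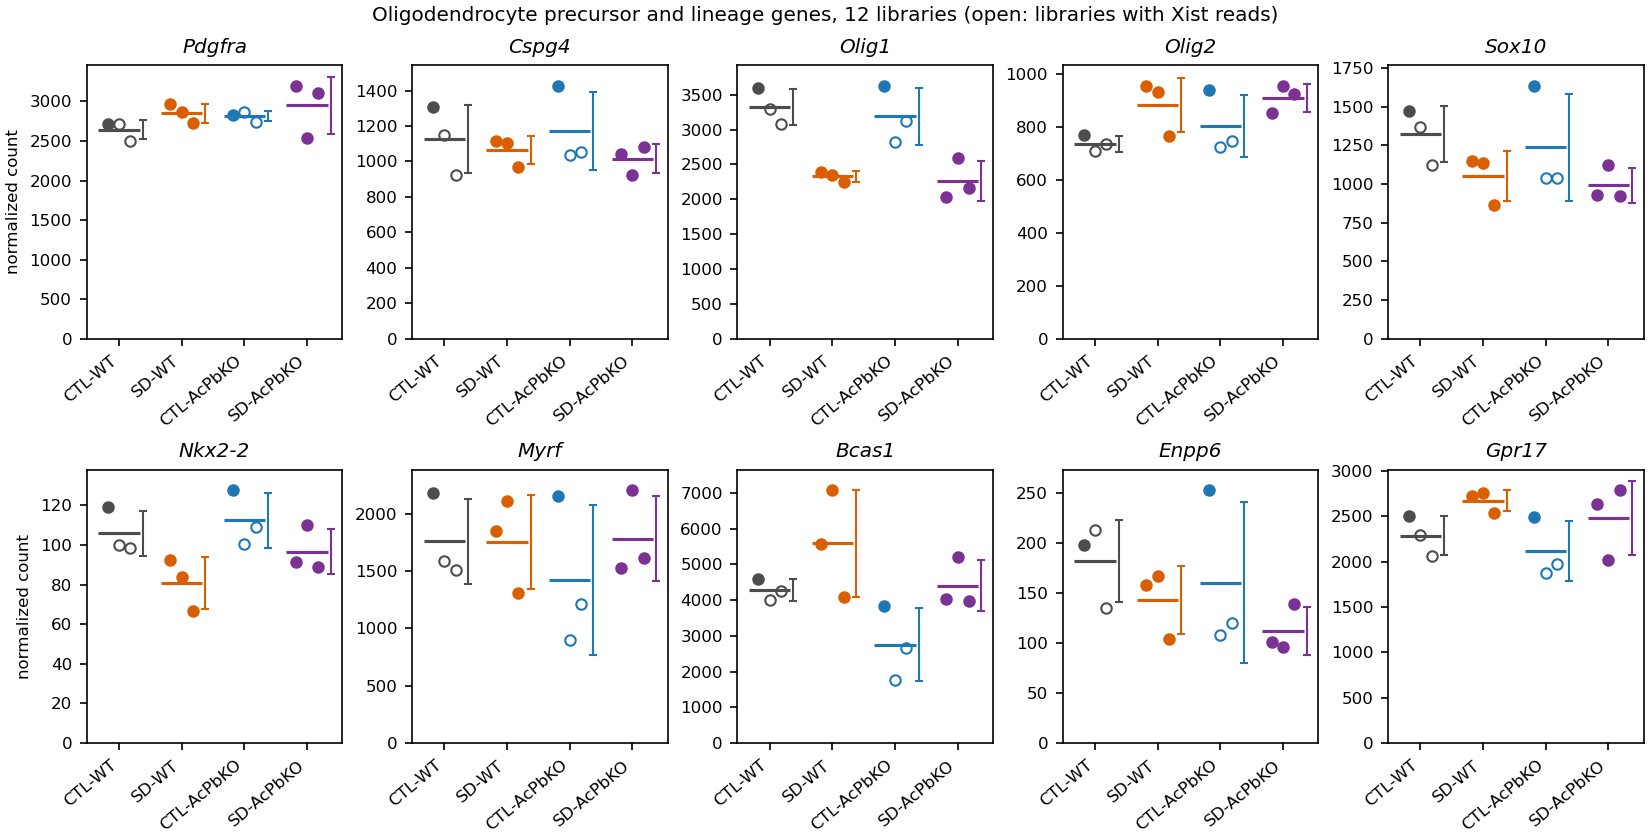
Normalized count (y axis, linear from 0) of each of the 10 genes in the 12 libraries, by group. Points are libraries, open points are libraries with Xist reads, horizontal lines are group means and bars are SD (n = 3). Olig1 lies at 3073 or above in CTL-WT and at 2396.5 or below in SD-WT.

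After SD in wild-type mice, Olig1 fell, and it was the only one of the 10 genes past an adjusted p of 0.05 in limma. Of all 20417 genes tested, 25.4% passed, 13.2% as higher and 12.2% as lower. Olig1, a basic helix-loop-helix factor of precursors and oligodendrocytes, had normalized counts of 3595, 3296 and 3073 in CTL-WT replicates 1, 2 and 3 and 2396.5, 2346 and 2244 in SD-WT replicates 1, 2 and 4. Every SD library lay below every control library, as for 19.7% of all genes tested. The level after SD was 0.702 times that of controls (log2 fold change -0.51, SE 0.069, 95% interval -0.66 to -0.36, limma adjusted p = 0.000985, Benjamini-Hochberg). Leaving out each library in turn gave log2 fold changes of -0.56 to -0.45, all past the threshold.

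Olig2, the neighbouring factor that specifies the lineage, had normalized counts of 768, 708 and 734 in CTL-WT and 954, 933 and 767 in SD-WT. The first 2 SD libraries lay above all controls and SD-WT replicate 4 lay just under the highest control. Its log2 fold change was 0.26 (95% interval 0.048 to 0.46, limma adjusted p = 0.0711), on the other side of 0 from that of Olig1. Without SD-WT replicate 4, the adjusted p was 0.00527, the 1 pass among the 6 fits that left out a library. Over these fits the log2 fold change ran from 0.20 to 0.36 and the limma adjusted p reached 0.247. With all libraries of the 2 groups, Olig2 passed in DESeq2 and not in edgeR.

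The ratio of both genes does not depend on how libraries are scaled. Olig1 reads per Olig2 read were 4.68, 4.65 and 4.19 in CTL-WT and 2.51, 2.52 and 2.92 in SD-WT. In AcPb-/- mice they were 3.87, 3.89 and 4.20 in controls and 2.39, 2.70 and 2.34 after SD. All 6 control libraries were at 3.87 or above and all 6 SD libraries at 2.92 or below, the 4 controls with Xist and the 2 without alike. Group means were 4.51 ± 0.277 (SD, n = 3) in CTL-WT, 2.65 ± 0.237 in SD-WT, 3.98 ± 0.185 in CTL-AcPbKO and 2.48 ± 0.196 in SD-AcPbKO. The ratio was chosen after its values were seen and was not tested. How many other gene pairs separate the libraries as fully was not counted. Among single genes in wild-type mice, every SD library lay above every control for 20.5% and below for 19.7%. In AcPb-/- mice these shares were 21.7% and 20.7%. Of the 2 genes, Olig1 passed in limma in both genotypes and Olig2 in neither.

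**Figure D2:**
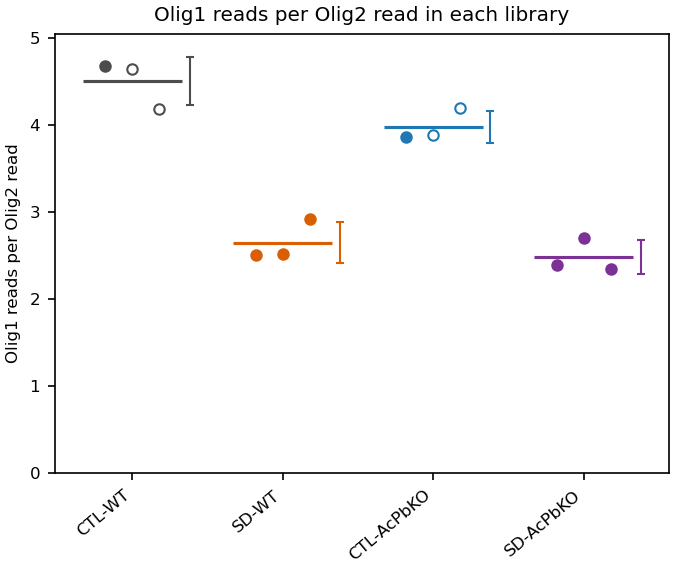
Olig1 reads per Olig2 read (y axis, linear from 0) in each of the 12 libraries by group, with open points for libraries with Xist reads, lines for group means and bars for SD (n = 3). Control libraries lie at 3.87 or above and SD libraries at 2.92 or below.

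The other transcription factors did not pass in limma in wild-type mice. Sox10, which drives myelin genes together with Myrf, had normalized counts of 1471, 1370.5 and 1121 in CTL-WT and 1151, 1138 and 863 in SD-WT, and the groups overlapped. Its log2 fold change was -0.33 (95% interval -0.61 to -0.052, limma adjusted p = 0.0807). Of the 6 fits that left out a library, it passed in 1, without CTL-WT replicate 3 (adjusted p = 0.0324). Over these fits the log2 fold change ran from -0.45 to -0.20 and the adjusted p reached 0.227. Sox10 also passed in DESeq2 and when scaled to the total, and not in edgeR. Nkx2-2, a homeodomain factor of precursors at the onset of differentiation, was measured at 119, 100.004 and 98.3 in CTL-WT and 92.3, 83.8 and 66.6 in SD-WT. Its groups did not overlap, with SD lower, as for 19.7% of all genes tested, and its log2 fold change of -0.39 (95% interval -0.78 to 0.0020) had a limma adjusted p of 0.136. The values of Myrf were 2179.8, 1583 and 1511 in CTL-WT and 1852, 2109.6 and 1306 in SD-WT, a log2 fold change of -0.011 (95% interval -0.40 to 0.38, limma adjusted p = 0.97).

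Among surface molecules of precursors, Pdgfra, the receptor for the mitogen PDGF-A, had normalized counts of 2714, 2713 and 2504 in CTL-WT and 2964, 2860.6 and 2726 in SD-WT. The groups did not overlap, with SD higher, as for 20.5% of all genes tested. The log2 fold change was 0.11 (95% interval -0.030 to 0.25, limma adjusted p = 0.237). Cspg4 was measured at 1305, 1147 and 924 in CTL-WT and 1115, 1104 and 972 in SD-WT, with all SD values inside the control range and a log2 fold change of -0.070 (95% interval -0.33 to 0.19, limma adjusted p = 0.702). Both genes are also expressed outside the lineage, Cspg4 in pericytes and Pdgfra in fibroblasts of vessels and meninges. Of 10 pericyte and mural genes, 3 were higher and 1 was lower after SD in wild-type mice, with summed normalized counts of 10523 to 11123 in CTL-WT and 10033 to 12065 in SD-WT. Of 8 fibroblast genes, 0 were higher and 3 were lower, with sums of 7809 to 7881 and 6212 to 7326. Their part in the values of Cspg4 and Pdgfra was not tested.

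The genes of committed and newly formed cells pointed in different directions. Gpr17, a receptor that marks the passage from precursor to oligodendrocyte, had normalized counts of 2499, 2297 and 2066 in CTL-WT and 2725, 2753 and 2536 in SD-WT, with every SD value above every control, as for 20.5% of all genes tested. Its log2 fold change was 0.23 (95% interval 0.057 to 0.40) with a limma adjusted p of 0.0525, and it passed in edgeR (adjusted p = 0.0432) and DESeq2 (adjusted p = 0.0359). Bcas1, a protein of newly myelinating cells, was measured at 4589, 3996 and 4264 in CTL-WT and 5581, 7093 and 4096 in SD-WT. Replicates 1 and 2 of SD-WT lay above all controls and replicate 4 among them, and the log2 fold change was 0.35 (95% interval 0.0034 to 0.70, limma adjusted p = 0.131). Bcas1 passed in 1 of the 6 fits that left out a library, the one without SD-WT replicate 4 (0.56, adjusted p = 0.00295). Over these fits the log2 fold change ran from 0.16 to 0.56 and the adjusted p reached 0.43. Enpp6, a choline phosphodiesterase of newly formed oligodendrocytes, was measured at 197, 213 and 135 in CTL-WT and 158, 167 and 104 in SD-WT, which overlapped (log2 fold change -0.35, 95% interval -0.83 to 0.13, limma adjusted p = 0.273).

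In AcPb-/- mice, 27.4% of 20574 genes passed after SD, 13.3% as lower and 14.1% as higher, and 2 of the 10 genes passed: Olig1 was lower and Bcas1 higher. Olig1 had normalized counts of 3632, 2819.8 and 3128 in CTL-AcPbKO replicates 3, 4 and 5 and 2039.6, 2586 and 2162 in SD-AcPbKO replicates 2, 3 and 4. Every SD library again lay below every control, as for 20.7% of all genes tested. The level after SD was 0.710 times that of controls (log2 fold change -0.49, SE 0.11, 95% interval -0.75 to -0.24, limma adjusted p = 0.0125). Olig1 missed the threshold without SD-AcPbKO replicate 2 (log2 fold change -0.42, adjusted p = 0.0638) and passed in the other 5 fits that left out 1 library, among them the fit without replicate 4, the library with choroid plexus transcripts (log2 fold change -0.46).

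Bcas1 was measured at 3826, 1778 and 2649 in CTL-AcPbKO and 4022, 5221 and 3976 in SD-AcPbKO, with every SD library above every control, as for 21.7% of all genes tested. The log2 fold change was 0.74 (SE 0.24, 95% interval 0.20 to 1.28, limma adjusted p = 0.0488). It passed in 1 of the 6 fits that left out a library, the one without CTL-AcPbKO replicate 3 (1.01, adjusted p = 0.00498), and was 0.46 (adjusted p = 0.114) without CTL-AcPbKO replicate 4. The lowest Bcas1 value, 1778, came from CTL-AcPbKO replicate 4, which also had the lowest sum of 20 myelin genes, 65993 normalized counts against 150655 in replicate 3 of that group.

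The other 8 genes did not pass in AcPb-/- mice. Olig2 was measured at 939, 726 and 746 in CTL-AcPbKO and 853, 957 and 923 in SD-AcPbKO, with a log2 fold change of 0.19 (limma adjusted p = 0.227), and Sox10 at 1636, 1036 and 1036 against 927, 1122 and 921, with -0.29 (limma adjusted p = 0.257). In both genes CTL-AcPbKO replicate 3 stood above the other 2 controls. Nkx2-2 (128, 101 and 109 against 91.4, 109.9 and 88.7) had a log2 fold change of -0.21, and Myrf (2154, 899 and 1211 against 1527, 2209 and 1611) one of 0.41 with a 95% interval of -0.23 to 1.04. Pdgfra (2832, 2860.4 and 2744 against 3201, 2535 and 3112) differed by 0.064 and Cspg4 (1429, 1038 and 1056 against 1039.9, 925 and 1083) by -0.19. Gpr17 (2492, 1877 and 1974 against 2636, 2021 and 2793) differed by 0.23 and Enpp6 (253, 108 and 120.3 against 101, 95.5 and 139) by -0.43 with a 95% interval of -1.14 to 0.29. CTL-AcPbKO replicate 3 was far above replicates 4 and 5 in Myrf, Sox10 and Enpp6, and the groups of all 8 genes overlapped. In AcPb-/- mice after SD, 2 of the 10 pericyte and mural genes were higher and 1 was lower, and of the 8 fibroblast genes 0 were higher and 2 were lower.

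**Figure D3:**
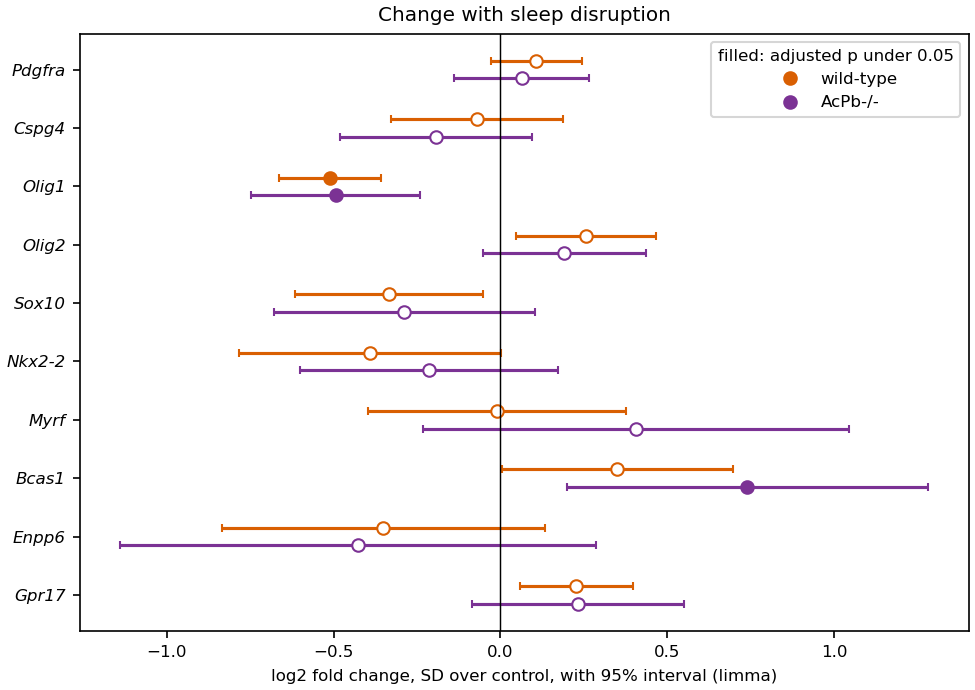
Log2 fold change of SD over control (x axis) with its 95% interval from limma for each of the 10 genes, in wild-type and AcPb-/- mice (n = 3 per group), filled where the adjusted p is under 0.05. Olig1 is at -0.51 and -0.49 in the 2 genotypes, and Bcas1 at 0.35 and 0.74.

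The 4 controls with Xist reads stood apart in these genes. Within each genotype, the 1 control without Xist had the highest value of the 3 controls for 9 of the 10 genes, against 36.7% of 16081 genes in CTL-WT and 35.6% of 16101 genes in CTL-AcPbKO with a mean of at least 10. The margin was small for Pdgfra in CTL-WT, 2714 against 2713. The control without Xist was also highest for 19 of 20 myelin genes in CTL-WT and 20 of 20 in CTL-AcPbKO. It also had the highest sum of 10 striatal genes, 26935 normalized counts against 19014 and 13241 in CTL-WT and 19271 against 14179 and 13637 in CTL-AcPbKO. Fits of all 12 libraries with a term for Xist, and fits of the 8 libraries without Xist, were therefore made, the latter with 1 control per genotype that is assumed to vary like the other groups. The part of Xist, or of the striatal transcripts, in these values was not tested.

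Olig1 was lower after SD in all of these fits. With the Xist term its log2 fold change was -0.66 in wild-type (limma adjusted p = 0.00143) and -0.65 in AcPb-/- mice (adjusted p = 0.00082), and without the libraries with Xist it was -0.63 (adjusted p = 0.0625) and -0.69 (adjusted p = 0.0348). Sox10 passed with the Xist term in both genotypes, at -0.63 (adjusted p = 0.0159) and -0.59 (adjusted p = 0.0166), and without the libraries with Xist it was at -0.50 (adjusted p = 0.187) and -0.73 (adjusted p = 0.0719). Cspg4 passed with the Xist term in AcPb-/- mice at -0.46 (adjusted p = 0.00986) and was at -0.33 (adjusted p = 0.0524) in wild-type mice.

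Bcas1, Olig2, Gpr17 and Myrf did not pass in any of these fits. The change of Bcas1 in AcPb-/- mice was 0.41 with the Xist term (limma adjusted p = 0.26) and 0.19 without the libraries with Xist (adjusted p = 0.709). Olig2 was at 0.11 and 0.20 in wild-type mice and at 0.041 and -0.046 in AcPb-/- mice in the same 2 fits, with adjusted p of 0.431 to 0.851. Gpr17 was at 0.037 and 0.095 in wild-type mice. Myrf was at -0.52 and -0.34 in wild-type and -0.11 and -0.29 in AcPb-/- mice, with adjusted p of 0.136 to 0.773.

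**Figure D4:**
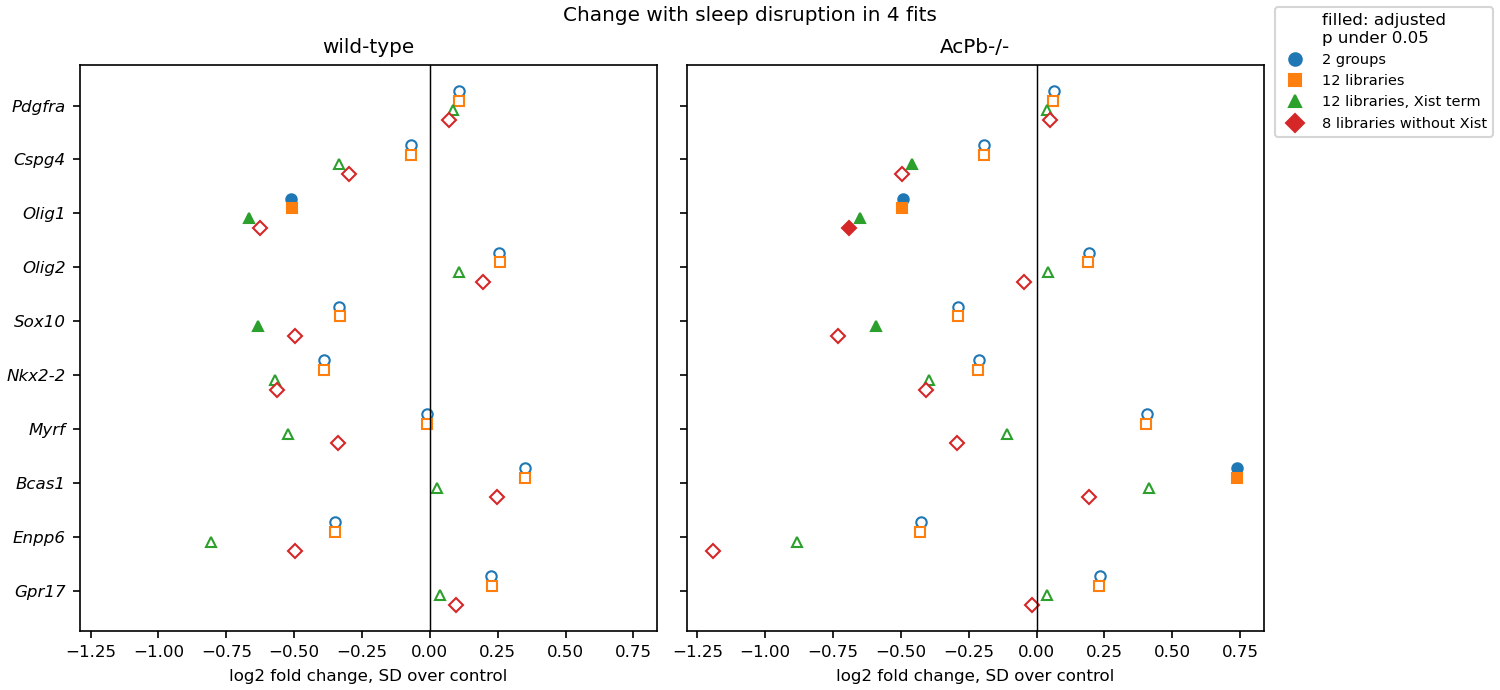
Log2 fold change of SD over control (x axis) for the 10 genes in wild-type and AcPb-/- mice from 4 limma fits: the 2 groups alone, all 12 libraries, all 12 with a term for Xist, and the 8 libraries without Xist. Filled symbols have an adjusted p under 0.05. Olig1 lies between -0.69 and -0.49 in every fit, and Bcas1 in AcPb-/- mice between 0.19 and 0.74.

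Between genotypes, 0 of the 10 genes passed in undisturbed mice by limma, edgeR or DESeq2, where 0.0197% of 20273 genes passed in limma. At an unadjusted p under 0.05 in limma, 1 of the 10 did, Bcas1, beside 1730 of all 20273 genes. Bcas1 had values of 4589, 3996 and 4264 in CTL-WT and 3826, 1778 and 2649 in CTL-AcPbKO, with every AcPb-/- control below every wild-type one, as for 7.04% of all genes. The log2 fold change was -0.71 (95% interval -1.19 to -0.22, limma adjusted p = 0.44). Bcas1 passed in 1 of the 6 fits that left out a library, at -0.98 (adjusted p = 0.0103) without CTL-AcPbKO replicate 3. Over these fits the log2 fold change ran from -0.98 to -0.43 and the adjusted p reached 0.847. Pdgfra was the 1 gene with every AcPb-/- control above every wild-type one, as for 7.35% of all genes, by a log2 fold change of 0.089.

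After SD, 0 of the 10 genes differed between genotypes by limma, edgeR or DESeq2, and 0 had an unadjusted p under 0.05 in any of the 3. In limma, 1265 of 20621 genes had an unadjusted p under 0.05. After adjustment 0.0145% passed, 0.00485% as higher and 0.0097% as lower. Log2 fold changes of SD-AcPbKO over SD-WT ran from -0.34 for Enpp6 (95% interval -0.83 to 0.14) to 0.26 for Nkx2-2 (95% interval -0.14 to 0.66), and the groups overlapped for all 10 genes. Of all genes, 5.35% had every AcPb-/- library above and 6.01% every one below.

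Whether sleep loss acted to a different extent in AcPb-/- than in wild-type mice was tested as an interaction term in limma over the 12 libraries. After adjustment it passed for 0% of the 20978 genes in limma, for 0 genes in edgeR and for 1 in DESeq2. In limma 839 genes had an unadjusted p under 0.05. The interaction passed for 0 of the 10 genes, also at an unadjusted p under 0.05. The effect in AcPb-/- mice minus that in wild-type mice was 0.013 on the log2 scale for Olig1 (95% interval -0.29 to 0.32) and -0.068 for Olig2 (95% interval -0.39 to 0.26). For Bcas1 it was 0.39 (95% interval -0.34 to 1.11) and for Myrf 0.41 (95% interval -0.42 to 1.25), so these intervals hold differences in either direction.

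The deposited tables also compare AcPb-/- mice after SD with undisturbed wild-type mice, which changes SD and genotype together and shares its samples with the comparisons above. In it 27.7% of 20560 genes passed, 14.1% as higher and 13.6% as lower, and 4 of the 10 did. Olig1 was at -0.56 on the log2 scale (limma adjusted p = 0.00245), Sox10 at -0.41 (adjusted p = 0.0229), Enpp6 at -0.69 (adjusted p = 0.0347) and Olig2 at 0.31 (adjusted p = 0.0148). Olig1 stood at 3073 to 3595 in CTL-WT and 2039.6 to 2586 in SD-AcPbKO, and Olig2 at 708 to 768 and 853 to 957. Neither gene's groups overlapped, with Olig1 lower, as for 20.8% of all genes, and Olig2 higher, as for 21.6%. The groups of Sox10 and Enpp6 overlapped. Olig1 passed in all 6 fits that left out 1 library, Olig2 missed without CTL-WT replicate 2 or SD-AcPbKO replicate 4, Sox10 without CTL-WT replicate 1 or 2 or SD-AcPbKO replicate 2 or 4, and Enpp6 without CTL-WT replicate 1 or 2 or SD-AcPbKO replicate 2 or 3.

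Genes that precursors, committed cells and mature cells express besides the 10 were read out in the same fits. Which cells of the bulk tissue gave the changes in these and the following lists was not tested. Of 16 other precursor genes, 1 was higher and 3 were lower after SD in wild-type mice, and 3 were higher and 3 lower in AcPb-/- mice, with median log2 fold changes of 0.017 and -0.0079 beside -0.0039 and 0.014 over all genes tested. In either direction 25.4% and 27.4% of all genes passed, so the counts of this list, of the committed genes, the regulators and the ligands and receptors are given as descriptions of their members. Ednrb, an endothelin receptor of glia, fell in both genotypes (-0.43, limma adjusted p = 0.00205, and -0.43, adjusted p = 0.0119), as did the matrix protein gene Matn4 (-0.66, adjusted p = 0.0119, and -0.79, adjusted p = 0.00502). The matrix glycoprotein Tnr rose in AcPb-/- mice (0.48, adjusted p = 0.0146) and was also the 1 higher gene of this list in wild-type mice. The adhesion molecule Cntn1 fell in wild-type mice (-0.20, adjusted p = 0.0269).

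Of 16 genes of committed and newly formed oligodendrocytes, 1 was higher and 3 were lower in wild-type mice and 1 was higher and 2 were lower in AcPb-/- mice (median log2 fold changes 0.060 and -0.089). The small GTPase gene Rras2 fell in both (-0.47, limma adjusted p = 0.00415, and -0.52, adjusted p = 0.00204). Mycl, a Myc family factor, fell in wild-type mice (-0.80, adjusted p = 0.003) and Prom1 fell in AcPb-/- mice (-0.46, adjusted p = 0.0194). Tmem108 rose in wild-type mice (0.33, adjusted p = 0.0226) and Nfasc, which builds axon and glia contacts, rose in AcPb-/- mice (0.33, adjusted p = 0.0238).

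Of 20 myelin and mature oligodendrocyte genes, 11 were lower and 0 higher after SD in wild-type mice, and 2 were lower and 0 higher in AcPb-/- mice. All genes passed as lower at 12.2% and 13.3%. Median log2 fold changes were -0.48 and -0.072, and the interaction with genotype passed for 0 of the 20 in limma. Aspa, which deacetylates N-acetylaspartate, fell by 0.77 on the log2 scale in wild-type mice (limma adjusted p = 0.000788) and Cnp, a major myelin enzyme, fell by 0.88 (adjusted p = 0.00113). In AcPb-/- mice Cnp fell by 0.72 (adjusted p = 0.0375) and Opalin, a gene of mature oligodendrocytes, fell by 1.01 (adjusted p = 0.0495). Opalin was also among the 11 genes lower in wild-type mice. Sums of the 20 genes were 129362 to 168032 normalized counts in CTL-WT, 104484 to 142401 in SD-WT, 65993 to 150655 in CTL-AcPbKO and 84079.8 to 128440 in SD-AcPbKO. In 1 fit of the 12 libraries, 7 of the 20 genes were lower in wild-type and 3 in AcPb-/- mice, with medians of -0.48 and -0.075. With a term for Xist in that fit, 14 and 7 were lower and the medians were -0.95 and -0.53. Without the libraries with Xist, 1 and 2 were lower and the medians were -0.78 and -0.80. Without SD-AcPbKO replicate 4, 0 of the 20 passed in AcPb-/- mice.

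Of 23 regulators of the lineage outside the 10 genes, 3 were higher and 1 was lower in wild-type mice, and 4 were higher and 4 lower in AcPb-/- mice (median log2 fold changes 0.080 and 0.091). Hes5, a Notch target that holds precursors and other progenitors back from differentiation and that astrocytes also express, fell in both (-1.19, limma adjusted p = 0.00265, and -1.94, adjusted p = 0.000444). The histone deacetylase gene Hdac2 rose in both (0.40, adjusted p = 0.00108, and 0.44, adjusted p = 0.00476). Tcf4, a partner of Olig2, rose in wild-type mice (0.31, adjusted p = 0.00344), and Sox4, a factor that restrains myelination, fell in AcPb-/- mice (-0.44, adjusted p = 0.00697).

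Of 25 ligands and receptors known to act on the lineage, 6 were higher and 3 were lower in wild-type mice and 4 were higher and 3 lower in AcPb-/- mice (median log2 fold changes 0.017 and 0.044). The growth factor receptor gene Fgfr1 rose in both (0.46, limma adjusted p = 0.00092, and 0.39, adjusted p = 0.0033), as did the adenosine receptor gene Adora1 (0.51, adjusted p = 0.00902, and 0.63, adjusted p = 0.00161). Lingo1, an inhibitor of differentiation that neurons also express, rose in wild-type mice (0.33, adjusted p = 0.00743). Jag1, a Notch ligand, fell in AcPb-/- mice (-0.60, adjusted p = 0.00245). Between undisturbed genotypes and between genotypes after SD, 0 genes of these 5 lists passed in limma. Without the libraries with Xist, 0 precursor genes, 0 committed genes, 0 regulators and 0 ligands and receptors passed in wild-type mice, and 0, 1, 2 and 2 in AcPb-/- mice.

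Myrf, Sox10 and Enpp6 followed the sum of the 20 myelin genes over the 12 libraries by both Pearson's and Spearman's correlation, and Bcas1 by Pearson's alone, among 10 relations computed with 100000 permutations each. Myrf gave Pearson's r = 0.86 (permutation p = 0.00031, adjusted p = 0.0031) and Spearman's rho = 0.72 (permutation p = 0.0105, adjusted p = 0.0353), and Sox10 gave r = 0.72 (permutation p = 0.00803, adjusted p = 0.0268) and rho = 0.80 (permutation p = 0.00315, adjusted p = 0.0315). Enpp6 gave r = 0.71 (permutation p = 0.0108, adjusted p = 0.027) and rho = 0.72 (permutation p = 0.0106, adjusted p = 0.0353). Bcas1 gave r = 0.73 (permutation p = 0.0061, adjusted p = 0.0268) but rho = 0.48 (permutation p = 0.116, adjusted p = 0.193). Without the 2 libraries farthest from the median sum, CTL-AcPbKO replicate 4 and SD-AcPbKO replicate 2, r was 0.80 for Myrf, 0.81 for Sox10, 0.65 for Enpp6 and 0.54 for Bcas1. Both sides of each relation came from the same libraries and the same scaling. The permutations exchanged all 12 libraries without regard to genotype, SD or Xist. The p-values therefore do not separate a relation within groups from differences between groups.

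Within the 6 controls r was 0.97 for Myrf, 0.84 for Sox10, 0.85 for Enpp6 and 0.97 for Bcas1, and within the 6 SD libraries 0.78, 0.83, 0.50 and 0.91. Bcas1, like Sox10, Olig1 and Olig2, had a higher r within each condition than over all libraries. Gpr17 gave 0.92 within the 6 controls and -0.23 within the 6 SD libraries. The 6 controls pool both genotypes and hold the libraries with Xist. Olig1 gave 0.44 over all 12 libraries (permutation p = 0.149, rho = 0.57, permutation p = 0.0559) and 0.88 and 0.85 within the 6 controls and the 6 SD libraries. Pdgfra ran the other way without passing, with r = -0.41 (permutation p = 0.183) and rho = -0.45 (permutation p = 0.149).

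**Figure D5:**
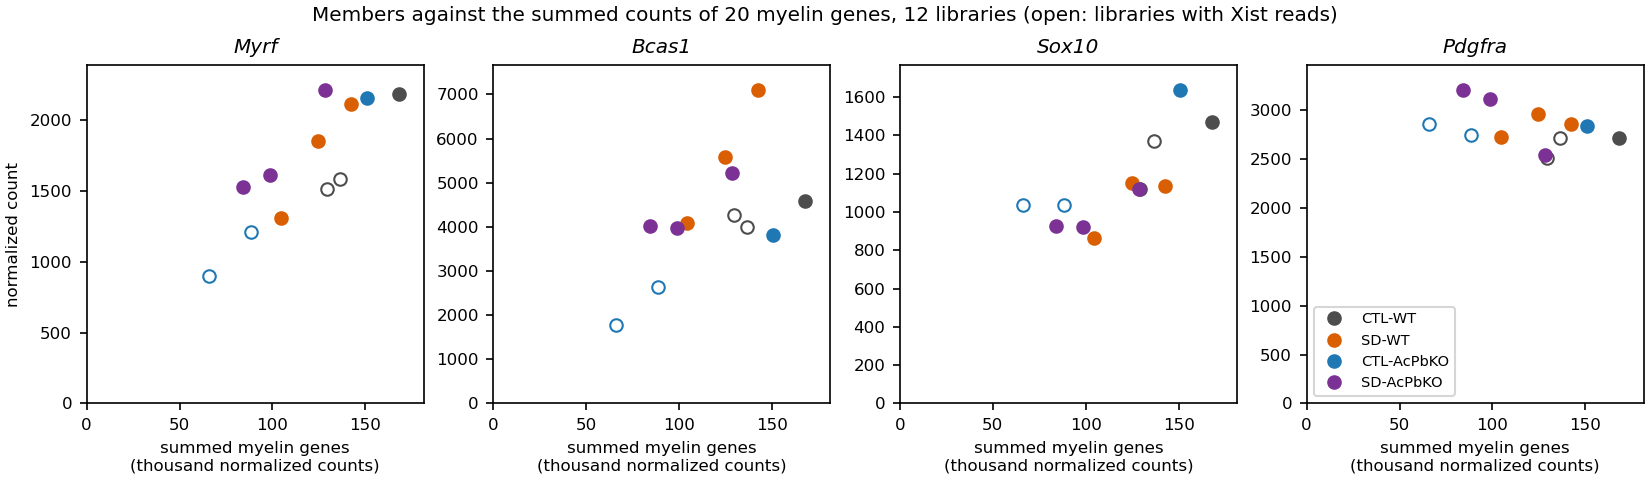
Normalized count (y axis) of Myrf, Bcas1, Sox10 and Pdgfra against the summed normalized counts of 20 myelin genes (x axis, in units of 1000) in the 12 libraries, both axes linear from 0, colored by group, with open points for libraries with Xist reads. Pearson's r is 0.86, 0.73, 0.72 and -0.41.

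As a description of how the 10 genes vary together, log2 values over the 12 libraries, which share group and scaling, gave the highest pairwise correlations for Sox10 with Enpp6 (r = 0.85), Cspg4 with Enpp6 (0.85), Bcas1 with Myrf (0.84) and Olig1 with Sox10 (0.82), and the lowest for Pdgfra with Olig1 (-0.56). Olig1 with Olig2 gave -0.41. The genes most like the mean of the 10 standardized log2 values, among 12529 genes that averaged 100 normalized counts or more and whose symbols are not Gm or Rik numbers, were Gab1 (r = 0.90), Micall1 and Mapk8ip3 (both 0.89), Gltp and Mad1l1 (both 0.88), Nfatc2 and Dnaic1 (both 0.87), Pls1 (0.85), Ephb1 and Zfp784 (both 0.84). That mean was highest in the 2 controls without Xist, 1.12 in CTL-AcPbKO replicate 3 and 0.71 in CTL-WT replicate 1, and lowest in CTL-AcPbKO replicate 4 (-0.83) and SD-WT replicate 4 (-0.77).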

How the data were processed

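Total RNA was sequenced as paired-end reads of 100 bases with a stranded mRNA kit. The authors aligned reads with HISAT2 2.2.1 to mm10, counted reads per gene (HTSeq per the study's methods, featureCounts per the submitters' processing notes) and compared 2 groups at a time in DESeq2 1.31.16. The gene annotation and strand setting of the counting are not given in the sources used here. The deposited values are a signal, read counts divided by a size factor per library and table. The 5 tables also hold the authors' fold changes and p-values, which were not used. Of the 16 samples in the labels, 4 have no column and were not analysed here. Multiplying each column by its inferred size factor gave back whole reads (100% of 732630 values within 0.01 of a whole read), and all 12 libraries were normalized together by median-of-ratios for the levels given. No 2 libraries of a group agreed within sampling noise.

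Tests used limma 3.58.1 (R 4.3.3) with a variance trend on log2(normalized count + 1) of each table, leaving out genes without reads in the libraries compared, Benjamini-Hochberg adjusted over all genes tested, with a threshold of 0.05 and 4 residual degrees of freedom. A fold change is on that log2 scale. The interaction used the 12 libraries in 1 fit with 8 residual degrees of freedom. Replicates are mice by the labels, and p-values measure the spread between these libraries. Alternatives were pseudocounts of 0.1 and 10, a mean of at least 10, edgeR 4.0.16 and DESeq2 1.42.0 on recovered reads, scaling to the total, 1 fit of 12 libraries with and without a term for Xist, that fit without the libraries with Xist, thinning to the smallest total, a block for the replicate number, and leaving out each library in turn. Tests were checked on simulated data.

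Named were all 10 genes, at most the 3 smallest adjusted p per lineage list and comparison, and the 10 genes of most like pattern, and 2 genes of the lists are not reported here. The 10 genes and all lists were chosen with earlier results of these data known. Positions and sequences come from GRCm38 with the GENCODE M21 annotation, where 23384 symbols of the tables (95.8%) were found. Permutations used NumPy 2.4.6, and the ranks and the adjustment of the permutation p-values used SciPy 1.17.1.

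Overlapping genes can share reads where strand was not used. Antisense exons cover 11.7% of Bcas1 (Bcas1os1), 9.67% of Nkx2-2 (Nkx2-2os), 7.26% of Olig1 (Gm15966), 4.55% of Pdgfra (Gm42802) and 3.62% of Gpr17 (Lims2).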

Additional observations from a re-analysis of the deposited data

How the results depend on the processing

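Of the 10 genes, Olig1 kept its direction after SD in all 17 alternative fits of each genotype and passed in 15 of them, and Bcas1 in AcPb-/- mice passed in 4 of 17. In wild-type mice 2 of the 10 genes passed with a mean of at least 10, with edgeR, scaled to the total and with the Xist term, 4 with DESeq2, and 0 without the libraries with Xist (3 at an unadjusted p under 0.05 in limma). In AcPb-/- mice 1 passed with either pseudocount, DESeq2, scaling to the total, thinning, or without the libraries with Xist. That fit called 680 genes in wild-type and 2080 in AcPb-/- mice, against 5108 and 6485 in the like fit of all 12 libraries. For AcPb-/- mice after SD against wild-type controls, 2 passed in the fit of 12 libraries and 1 without the libraries with Xist (1318 genes). Leaving out 1 library gave 1 to 4 of the 10 genes in wild-type mice (4 without SD-WT replicate 4, 2699 to 6222 genes in all), 0 to 4 in AcPb-/- mice (0 without SD-AcPbKO replicate 2 with 2 at an unadjusted p under 0.05, 4 without CTL-AcPbKO replicate 3, 3393 to 5412 genes in all), 0 to 1 between controls (0 to 168, the highest without CTL-AcPbKO replicate 3), and 1 to 4 for SD-AcPbKO against CTL-WT (3393 to 6008). The cause of these differences was not tested.

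Over all alternatives, genes past the threshold ran from 0 to 168 between undisturbed genotypes (93 with DESeq2), from 0 to 97 between genotypes after SD and from 0 to 9 for the interaction. Direction turned for values near 0, and also for larger values in the fits with the Xist term or without the libraries with Xist. With 1 library left out, Cspg4 in wild-type mice ran from -0.20 to 0.043 (the highest without CTL-WT replicate 1) and Myrf from -0.16 to 0.19 (the highest without SD-WT replicate 4). Myrf in wild-type mice was 0.0011 with edgeR and 0.090 with the replicate block. In AcPb-/- mice Myrf was 0.41 in the fit of the 2 groups, -0.11 with the Xist term and -0.29 without the libraries with Xist. In AcPb-/- mice without the libraries with Xist, Olig2 was -0.046 and Gpr17 -0.019, against 0.19 and 0.23 in the fit of the 2 groups. The interaction was -0.063 for Olig1 and -0.057 for Bcas1 without the libraries with Xist, against 0.013 and 0.39 with all 12 libraries. With 1 library left out it ran from -0.087 to 0.11 for Olig1 and from -0.17 to 0.049 for Olig2.

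The replicate number as a block was an alternative, since groups share numbers in the labels. At most 2 pairs per comparison have columns, deviations of same-numbered libraries correlated at -0.14 to 0.23 (and at -0.43 for the 1 pair of controls), and they share only a number. With the block, 0 of the 10 genes and 0 genes in all passed in limma in the comparisons it was run for. At an unadjusted p under 0.05, 3 of the 10 passed in wild-type mice (6889 genes) and 1 in AcPb-/- mice (4662 genes). Olig1 was then at -0.54 (adjusted p = 0.092) and -0.43 (adjusted p = 0.188), Pdgfra in AcPb-/- mice at -0.017 and the interaction for Olig1 at -0.057. For CTL-AcPbKO against CTL-WT, No paired analysis was possible because only 1 number is shared. With 3 libraries per group, Nkx2-2 and Enpp6 had the fewest reads, 57 to 234. The SE of the change after SD was largest for Enpp6 in both genotypes (0.22 and 0.31). For Nkx2-2 in AcPb-/- mice it was 0.17, below Myrf (0.28) and Bcas1 (0.24).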

Other observations

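Marker genes of other cell types in the same limma fits are given as counts of the list, in wild-type and then AcPb-/- mice after SD. Of 7 microglial genes, 1 was higher and 0 lower (C1qb 0.22), then 0 higher and 3 lower (among them Cx3cr1 -0.37 and Csf1r -0.39). Their sums were 17428.5 to 18595 in CTL-WT and 16320 to 17716 in SD-WT. In AcPb-/- mice the sums were 16942 to 17753 in CTL-AcPbKO and 12775 to 15430.3 in SD-AcPbKO. Between genotypes after SD, 0 of the 7 microglial genes passed. Of 7 astrocyte genes, 2 were lower (Aldh1l1 -0.35, Aqp4 -0.17), then 1 (Aldh1l1 -0.35). Of 7 neuronal genes, 1 was higher in both (Gad2 0.19 and 0.26). Of 6 endothelial genes, 3 were higher and 1 was lower in both, with Ly6c1 at 0.72 and 0.61 and Cldn5 at -0.38 and -0.77.

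Of 10 striatal genes, 2 were lower in wild-type mice (Adora2a -1.81, Drd1 -0.61) and 0 passed in AcPb-/- mice, with sums of 13241 to 26935 in CTL-WT, 16178 to 18814 in SD-WT, 13637 to 19271 in CTL-AcPbKO and 18168 to 24185 in SD-AcPbKO. Of 5 choroid plexus genes, 1 was higher in wild-type mice (Kl 0.56) and 0 passed in AcPb-/- mice. Of 5 red blood cell genes 1 had reads to test and it did not pass. Their part in the values of the oligodendrocyte lineage genes was not tested.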
